A study of Mus musculus with 2 samples.

Results

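The cells described here are the 115 leukaemia cells of the Jumonji library with the highest summed expression of 5 primary granule genes, out of 575 cells of that library that passed the cell filter and 1183 cells that passed in both libraries. They are called granule-high Jumonji cells below. A barcode was kept if it had 500 or more detected genes and if no more than 10% of its unique molecular identifiers (UMIs, tags that each mark 1 captured RNA molecule) came from mitochondrial genes. Each kept cell was scored by its UMIs of Mpo, Ctsg, Elane, Prtn3 and Ms4a3 over all its UMIs, and the top 20% by this score were taken. Levels of these 5 genes therefore chose the cells and are given as a description only.

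The series holds 2 single-cell libraries from mouse leukaemia cells that carry the MLL-AF9 fusion oncogene and the DNA-cutting nuclease Cas9, grown in medium with interleukin-3 (IL-3), a growth factor of myeloid progenitors. The Jumonji library came from cells with a guide RNA against the Jumonji domain of JMJD1C, a histone demethylase of the JmjC family. The Renilla library, 608 kept cells, came from cells with a guide against Renilla luciferase, which is absent from the mouse genome. The design thus asks what targeting that domain does to the cells. The granule-high cells were compared with the other 460 kept Jumonji cells and with the Renilla cells. Both cultures carry MLL-AF9 and Cas9, and the labels used here do not say whether they are clones, which cells of the Jumonji culture carry an edit or what the edits are. With 1 library of each kind there is no replicate: intervals are 95% intervals for counting error only, no test was made, and a difference between the libraries cannot be told apart from a difference between cultures or preparations.

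Primary (azurophilic) granules are made at the promyelocyte stage of neutrophil development. They store myeloperoxidase (Mpo), which makes hypochlorous acid, and the serine proteases neutrophil elastase (Elane), proteinase 3 (Prtn3) and cathepsin G (Ctsg), while Ms4a3 is a membrane protein that marks granulocyte-monocyte progenitors. Later stages switch these genes off and turn on secondary granule and cytosolic genes such as Lcn2, Ltf, Camp, S100a8 and S100a9, and the transcription factors PU.1, C/EBP and RUNX1 act on many of these promoters.

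The promoters of the granule genes are shown because the genes that chose the cells differed in level, with Elane and Prtn3 on the one side and Mpo and Ctsg on the other. Each sequence runs from 250 bases before to 50 bases after the RefSeq start of the gene on GRCm38.p6. For Elane, Prtn3 and Mpo these starts differ from those of the gene coordinates given below, which come from the GENCODE annotation. The Prtn3 window lies inside the GENCODE span of Prtn3. Motif positions hold for the RefSeq starts only. Capitals mark the ETS-type motif GAGGAA, the core that PU.1 can bind, and in Ctsg also the RUNX motif TGTGGT, on either strand.
Elane promoter, chr10:79886062-79886361, plus strand: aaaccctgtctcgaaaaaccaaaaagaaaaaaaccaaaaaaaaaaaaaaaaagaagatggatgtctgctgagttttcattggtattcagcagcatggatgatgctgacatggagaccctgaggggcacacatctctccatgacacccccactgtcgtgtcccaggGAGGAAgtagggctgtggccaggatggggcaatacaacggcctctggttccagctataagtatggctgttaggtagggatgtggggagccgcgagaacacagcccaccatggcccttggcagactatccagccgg
Prtn3 promoter, chr10:79879417-79879716, plus strand: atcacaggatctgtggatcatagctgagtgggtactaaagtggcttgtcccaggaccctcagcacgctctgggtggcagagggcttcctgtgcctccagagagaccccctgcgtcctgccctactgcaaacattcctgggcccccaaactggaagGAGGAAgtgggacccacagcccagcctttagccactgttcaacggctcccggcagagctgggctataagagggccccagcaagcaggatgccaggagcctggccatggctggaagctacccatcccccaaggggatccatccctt
Mpo promoter, chr11:87793534-87793833, plus strand: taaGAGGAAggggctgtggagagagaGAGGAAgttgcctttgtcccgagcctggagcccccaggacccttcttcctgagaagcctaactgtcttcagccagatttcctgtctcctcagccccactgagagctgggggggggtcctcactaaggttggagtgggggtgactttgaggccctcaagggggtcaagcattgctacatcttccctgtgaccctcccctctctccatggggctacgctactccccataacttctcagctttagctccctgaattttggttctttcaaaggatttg
Ctsg promoter, chr14:56102525-56102824, minus strand: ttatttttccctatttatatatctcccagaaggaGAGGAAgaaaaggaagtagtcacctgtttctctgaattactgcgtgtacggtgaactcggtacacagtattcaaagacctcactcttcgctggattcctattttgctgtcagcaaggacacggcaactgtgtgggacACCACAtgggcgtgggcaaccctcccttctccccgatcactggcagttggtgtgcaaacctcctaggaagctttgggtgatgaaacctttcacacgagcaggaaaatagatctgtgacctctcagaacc
The motif GAGGAA occurred once in each of the Elane, Prtn3 and Ctsg windows, at positions -85, -95 and -216 counted from 0 at the start, and at 2 places in the Mpo window. The Ms4a3 window, not printed, also held 1 match, and 28.1% of 32544 distinct mouse promoter windows of this length hold at least 1. The C/EBP motif TTNNGNAA, present in 40.7% of windows, was found in none of the 4 printed windows and at 2 places in that of Ms4a3. TGTGGT, present in 16.7% of windows, was found in Ctsg only among the 5. A match is a description of these letters and not evidence of binding.

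The granule-high cells were deep: their median cell held 26530 UMIs and 4599 genes, against 20676 UMIs and 4012.5 genes in the other Jumonji cells and 23528 UMIs and 4328 genes in the Renilla cells. Their median mitochondrial share was 2.63%, against 2.64% in other Jumonji cells and 3.43% in Renilla cells. Summed UMIs were 3173008 over the granule-high cells, 9636653 over the other Jumonji cells and 14418743 over the Renilla cells. No barcode was shared between the libraries. Scrublet, a doublet caller, marked 0 of the 115 granule-high cells, against 5 of all 575 Jumonji cells and 11 of 608 Renilla cells.

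The score of the granule-high cells lay between 2501 and 10733 CPM (counts of UMIs scaled to 1e6 UMIs of the cell) with a median of 3737 CPM. The median was 791 in the other Jumonji cells and 4523 in the Renilla cells. The lowest-scoring granule-high cell had 2501 and the highest-scoring cell left out had 2497, so the border fell inside a continuous range. Of the Renilla cells, 503 of 608 (82.7%) scored at or above the lowest granule-high cell, and 37 of the 115 granule-high cells (32.2%) reached the median Renilla cell. The granule-high cells thus overlapped the lower and middle range of the Renilla cells.

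**Figure D1:**
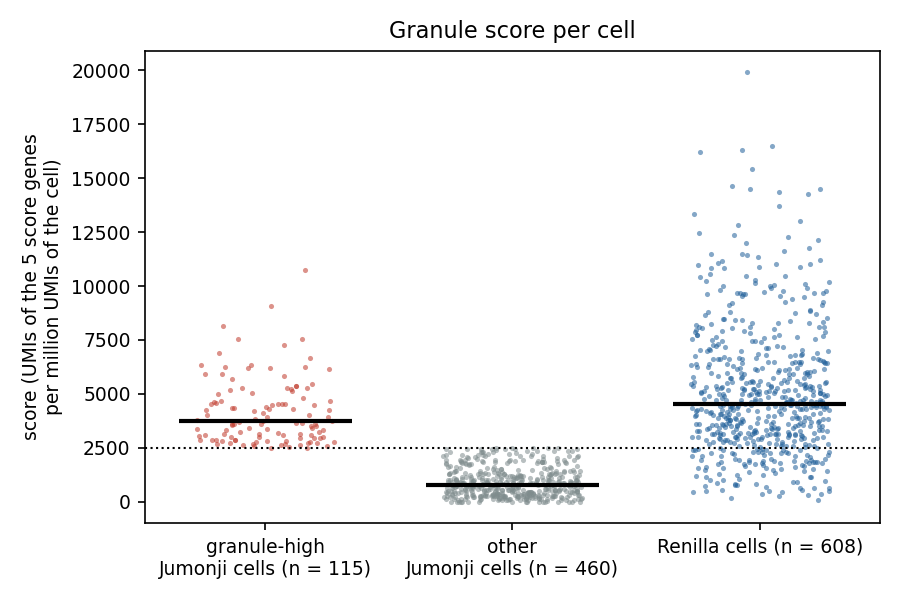
Granule score of each cell (vertical axis, summed CPM of the 5 score genes in the cell) in granule-high Jumonji cells, other Jumonji cells and Renilla cells. Points are cells, black lines are medians (3737, 791 and 4523 CPM) and the dotted line is the lowest granule-high cell at 2501 CPM. The granule-high cells lie within the range of the Renilla cells.

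The label under which the cells were grouped speaks of kept granule expression. Levels of the 5 genes relative to Renilla cells were uneven, and the choice by score raised them in the granule-high cells. Levels below are CPM of UMIs summed over a group of cells. Elane (chr10:79886247-79888215 of mm10) stood at 1885 CPM in granule-high cells (95% counting interval 1837 to 1933), 350.2 CPM in other Jumonji cells and 1769 CPM in Renilla cells. Prtn3 (chr10:79874476-79883174), its neighbour on the chromosome, stood at 1490, 544 and 1721 CPM in the same order of groups. Ms4a3 (chr19:11629496-11640851) stood at 435 CPM in granule-high cells, 48.7 CPM in other Jumonji cells and 564 CPM in Renilla cells. These genes were thus near their Renilla level, between 0.77 and 1.07 times it.

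Mpo (chr11:87793581-87804413) and Ctsg (chr14:56099881-56102574) lay further below the level of all Renilla cells. Mpo reached 233 CPM in granule-high cells (217 to 251), against 14.1 CPM in other Jumonji cells and 607 CPM in Renilla cells (595 to 620). Ctsg reached 217 CPM in granule-high cells, 44.3 CPM in other Jumonji cells and 560 CPM in Renilla cells. Their log2 ratios of granule-high over Renilla cells were -1.38 and -1.37. Elane and Prtn3 together supplied 79.2% of the score UMIs of granule-high cells, 89.3% of those of other Jumonji cells and 66.8% of those of Renilla cells. There were 8.08 Elane UMIs per Mpo UMI in granule-high cells, 24.8 in other Jumonji cells and 2.91 in Renilla cells.

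Levels were also set beside Renilla cells of equal score. Against 115 Renilla cells picked to match the granule-high cells in score, a comparison added after the data had been seen, Elane was higher in granule-high cells by 0.51 on the log2 scale (1885 against 1323 CPM), Prtn3 stood at 1490 against 1504 CPM, and Mpo at 233 against 469 CPM. Since the sum of the 5 genes was matched, a lower Mpo and Ctsg had to be met by higher levels of the others, so these values describe the make-up of the score only. When each gene was measured in cells chosen by the other 4 genes, the log2 ratios over Renilla cells were -1.56 for Mpo, -1.51 for Ctsg, -0.53 for Ms4a3, -0.31 for Prtn3 and -0.10 for Elane. Elane was then slightly below the Renilla level in place of slightly above it.

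**Figure D2:**
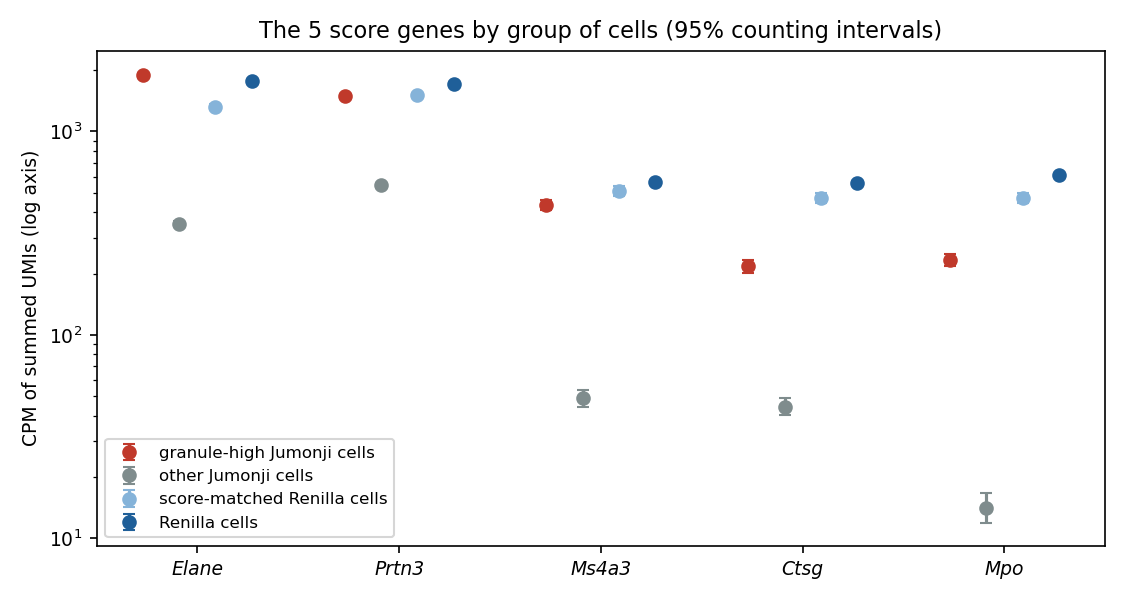
Level of each score gene (vertical axis, CPM of summed UMIs on a log axis) in granule-high Jumonji cells, other Jumonji cells, score-matched Renilla cells and all Renilla cells, with 95% counting intervals. Elane and Prtn3 of granule-high cells sit beside the Renilla values, while Mpo (233 against 607 CPM) and Ctsg (217 against 560 CPM) sit below them.

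Single cells showed the same unevenness. All 115 granule-high cells had a UMI of Elane and of Prtn3, 95 had one of Ms4a3, 88 of Ctsg and 59 (51.3%) of Mpo. Mpo was seen in 52 of 460 other Jumonji cells (11.3%) and in 575 of 608 Renilla cells (94.6%). All 5 genes were seen together in 44 granule-high cells (38.3%, exact binomial interval 29.4% to 47.8%), against 21 of 460 other Jumonji cells (4.57%) and 525 of 608 Renilla cells (86.3%). Among the score-matched Renilla cells, whose median depth of 22882 UMIs was below the 26530 UMIs of the granule-high cells, it was 107 of 115 (93.0%). In the lowest-scoring 20% of Jumonji cells (median 13881 UMIs) it was 0 of 115, which allows a share of up to 3.16% by the exact interval. UMIs of free RNA can add to such shares, and their part was not tested.

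Within the granule-high cells Mpo was concentrated in part of them. Its level per cell had a lower quartile of 0 CPM, a median of 29.6 CPM, an upper quartile of 265 CPM and a highest value of 1813 CPM. The top 11 cells held 47.8% of its UMIs, against 22.2% for Elane. After these values had been seen, the cells were divided into 38 with at least 5 Mpo UMIs, 21 with 1 to 4 and 56 with none. Median depth was 29675 UMIs in the cells with at least 5 Mpo UMIs and 25489 UMIs in those with none. Their median score was 5127 and 3362 CPM in the same order. The parts of depth and of score in the division, and in the differences given next, were not tested.

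Both parts carried Elane: 2037 CPM in cells with at least 5 Mpo UMIs and 1889 CPM in cells with none. A cell without Mpo could reach the lowest granule-high score of 2501 CPM only on the other 4 score genes. Its Elane level is thus partly set by the choice of cells. Ctsg went with Mpo, at 348 CPM in cells with at least 5 Mpo UMIs and 71.5 CPM in cells with none, and Ms4a3 did so less (552 and 345 CPM). S100a8, a calcium-binding subunit of calprotectin and a marker of later neutrophil stages, ran the other way, at 355 CPM in cells with at least 5 Mpo UMIs and 1498 CPM in cells with none. Its partner S100a9 stood at 166 and 1008 CPM in the same order. Lcn2, the secondary granule protein that binds siderophores, stood at 8.05 and 65.4 CPM, and Ngp, neutrophilic granule protein, at 8.05 and 82.4 CPM.

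Read cell by cell, at least 5 UMIs of Mpo were found in 38 granule-high cells, at least 5 UMIs of S100a8 in 37, both in 9 and neither in 49. In other Jumonji cells the corresponding numbers were 6, 64, 0 and 390 of 460, and in Renilla cells 425, 18, 5 and 170 of 608. The largest class of granule-high cells, 49 of 115, thus had at least 5 UMIs of neither gene. Others had at least 5 UMIs of Mpo, as most Renilla cells did, or of S100a8 with fewer than 5 of Mpo. S100a8 does not mark the cells without Mpo as a whole, since 11 granule-high cells held 69.1% of its UMIs.

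**Figure D3:**
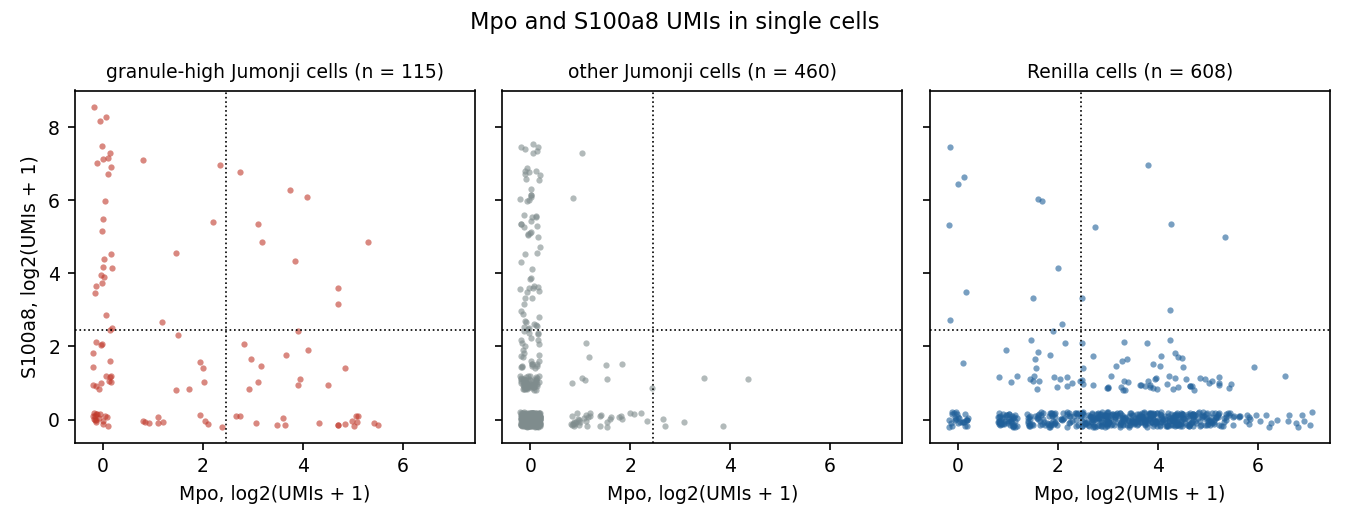
UMIs of Mpo (horizontal axis) and S100a8 (vertical axis) in each cell, as log2(UMIs + 1) with a small random shift to separate points, in granule-high Jumonji cells, other Jumonji cells and Renilla cells. Dotted lines mark 5 UMIs. Of the 115 granule-high cells, 9 lie at or above 5 UMIs of both genes.

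Gene lists separated the same parts. List genes are counted as higher or lower at 1.5-fold with at least 50 UMIs over both groups. Over all 4956 genes with that many UMIs, 6.34% were higher and 6.96% lower in cells with at least 5 Mpo UMIs than in cells with none. Of the secondary granule and neutrophil list, 0 of 7 measured genes were higher and 6 were lower, with a median log2 ratio of -2.08 against 0.02 over all genes. Of the paired immunoglobulin-like receptors, 6 of 9 were lower (median -1.0), and of the ribosome biogenesis genes 11 of 20 were higher (median 0.60). Of the G2/M genes 13 of 41 were lower and 1 was higher, with a median of -0.37.

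Some genes that set the Jumonji library apart from the Renilla library were high in both parts, and others in the cells without Mpo. Csf2rb (chr15:78325752-78353847), the signalling subunit shared by the receptors for IL-3, IL-5 and GM-CSF, stood at 84.0 CPM in cells with at least 5 Mpo UMIs and 114 CPM in cells with none, against 35.2 CPM in Renilla cells. Wfdc17, a small secreted protein with a whey acidic protein domain, stood at 60.8 and 59.2 CPM, against 11.3 CPM in Renilla cells. Lilrb4a, an inhibitory receptor, stood at 21.5 and 52.4 CPM, against 1.60 CPM in Renilla cells. In these 3 genes the cells with Mpo stood above the Renilla level too. Lgals3, the lectin galectin-3, stood at 57.2 CPM in cells with at least 5 Mpo UMIs and 279 CPM in cells with none, against 55.3 CPM in Renilla cells. Ctsh, the lysosomal protease cathepsin H, stood at 61.7 and 158 CPM, against 54.2 CPM in Renilla cells. In both genes the cells with at least 5 Mpo UMIs were within counting error of the Renilla level.

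Jmjd1c (chr10:67096125-67256326), the targeted gene, stood at 97.7 CPM in granule-high cells, 117 CPM in other Jumonji cells and 140 CPM in Renilla cells. It did not separate the parts with and without Mpo (97.4 and 96.7 CPM). The log2 ratio of granule-high over other Jumonji cells was -0.26 (-0.44 to -0.07). Within each library Jmjd1c was lower with higher score, from 148 CPM in the lowest to 97.7 CPM in the highest 20% of Jumonji cells, and from 171 to 109 CPM across the same steps in Renilla cells. A 3' tag does not show whether a cell's Jumonji domain was edited, so these counts do not tell edited from unedited cells.

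Against the other Jumonji cells, few genes outside the score were higher. Among the 7414 genes with 100 UMIs or more over both groups, 22 (0.297%) were higher by 2-fold or more and 115 (1.55%) lower by 2-fold or more in granule-high cells. Because these cells were picked from 1 library by 5 of their own genes, genes that vary with those 5 have to differ, and the counts describe what went with the score.

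The genes most clearly higher in granule-high cells were of later neutrophil type. S100a8 (chr3:90668978-90670035) stood at 922 CPM in granule-high cells, 358 CPM in other Jumonji cells and 64.3 CPM in Renilla cells, and S100a9 (chr3:90692632-90695721) at 627, 242 and 41.8 CPM. The stefin A genes, inhibitors of cysteine proteases, followed: BC100530 stood at 850 CPM in granule-high and 272 CPM in other Jumonji cells, and Stfa1 at 499 and 179 CPM. Because these stefins resemble each other closely, their separate levels are uncertain.

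The S100a8 difference rested on a minority of cells. Of the granule-high cells, 72 of 115 (62.6%) had a UMI of it, against 162 of 460 (35.2%) other Jumonji cells and 100 of 608 (16.4%) Renilla cells, but 11 granule-high cells held 69.1% of their S100a8 UMIs. The log2 ratio was 1.36 (1.29 to 1.43), and over 16 other settings lay between 0.57, when the 5 score genes were given equal weight, and 2.11, within tertiles of depth. Other genes at the top of the list were Mgl2, a C-type lectin (log2 ratio 1.47), Clec12a, an inhibitory lectin of myeloid cells (1.36), Trem3, a receptor of the TREM family (1.48), Nkg7, a protein of cytotoxic granules (1.19), Pde4d, a cyclic AMP phosphodiesterase (1.35), and Sgip1, which acts in endocytosis (1.60). Chil3 and Camp, 2 further neutrophil granule genes, had 45 and 43 UMIs in granule-high cells, against 5 and 22 in the other Jumonji cells.

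The leading lower genes included lysosomal, antigen presentation and eosinophil genes. Ctss, the lysosomal protease cathepsin S, stood at 11.3 CPM in granule-high cells, 82.0 CPM in other Jumonji cells and 4.51 CPM in Renilla cells. Wfdc17 stood at 63.3 CPM in granule-high cells, 353 CPM in other Jumonji cells and 11.3 CPM in Renilla cells. Cd74, the chaperone of MHC class II, had 1 UMI in granule-high and 105 in other Jumonji cells (log2 ratio -5.11, -10.43 to -2.60), and Prg2, the eosinophil major basic protein, 3 and 230 UMIs (-4.66, -6.95 to -3.09). Lower too were Slfn2, a Schlafen family gene (-2.26), Cyp4f18, a cytochrome P450 that acts on leukotriene B4 (-2.24), the integrin subunit Itgb7 (-2.13), Cd200r4, a receptor of the CD200 receptor family (-2.85), and Ctla2a, an inhibitor-like protein related to cathepsin propeptides (-2.63).

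Much of this difference lay in the lowest-scoring cells, which were also shallow. In the lowest-scoring 20% of Jumonji cells Wfdc17 stood at 937 CPM, Cd74 at 48.2 CPM and Prg2 at 89.4 CPM, and in the next 20% at 300.1, 2.50 and 12.1 CPM. Median depth was 13881 UMIs in the lowest-scoring 20% and 26530 UMIs in the granule-high cells. Within tertiles of depth the ratio of Cd74 was -1.32 and that of Prg2 -1.73. Granule-high cells held only 1 UMI of Cd74 and 3 of Prg2, and a tertile without any took a floor of 3 counts. Both ratios are thus partly set by the floor and cannot show how much of the difference went with depth. Without the lowest-scoring 20% the count of 2-fold lower genes was 54 in place of 115 and that of higher genes 13 in place of 22. The part of depth in these differences was not tested.

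The same top-against-rest contrast in the Renilla library uses other cells and shares none with the contrast in Jumonji cells. Of 7678 genes, 0.208% were at least 2-fold higher and 0.508% at least 2-fold lower in the top 20% of Renilla cells by score. At 1.5-fold and 100 UMIs or more, 190 genes (2.56%) were higher and 416 (5.61%) lower in granule-high than in other Jumonji cells, and 113 (1.47%) were higher and 215 (2.8%) lower in the Renilla contrast. Of these, 16 genes were higher in both (8.42% of the Jumonji and 14.2% of the Renilla list) and 54 lower in both (13.0% and 25.1%). Of the 176 higher Jumonji genes measured in Renilla cells 125 had the same sign there, with a median log2 ratio of 0.17, and of the 294 lower ones 227, with a median of -0.22. The other genes of the 190 and 416 had too few UMIs in Renilla cells to be counted there. Most of the measured genes were thus not 1.5-fold apart in Renilla cells. The share that was 1.5-fold apart in the same direction was still above the 1.47% and 2.8% over all genes. Among the leading genes, the log2 ratios in Renilla cells were 1.70 for S100a8, 1.67 for S100a9, 1.46 for Stfa1, 1.33 for BC100530, 1.38 for Clec12a and 1.13 for Mgl2. The lower genes Ctss (-2.41), Slfn2 (-2.16) and Itgb7 (-1.02) kept their sign, while Sgip1 stood at 0.20 and Prg2 at -0.04. The Renilla value of S100a8 rested on few cells, since 12 of the top 121 Renilla cells held 93.6% of their 422 UMIs of it. S100a8 was nevertheless no simple function of the score in Renilla cells, since it stood at 61.0, 66.6, 31.7, 20.7 and 143 CPM over the 5 steps of score from low to high.

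**Figure D4:**
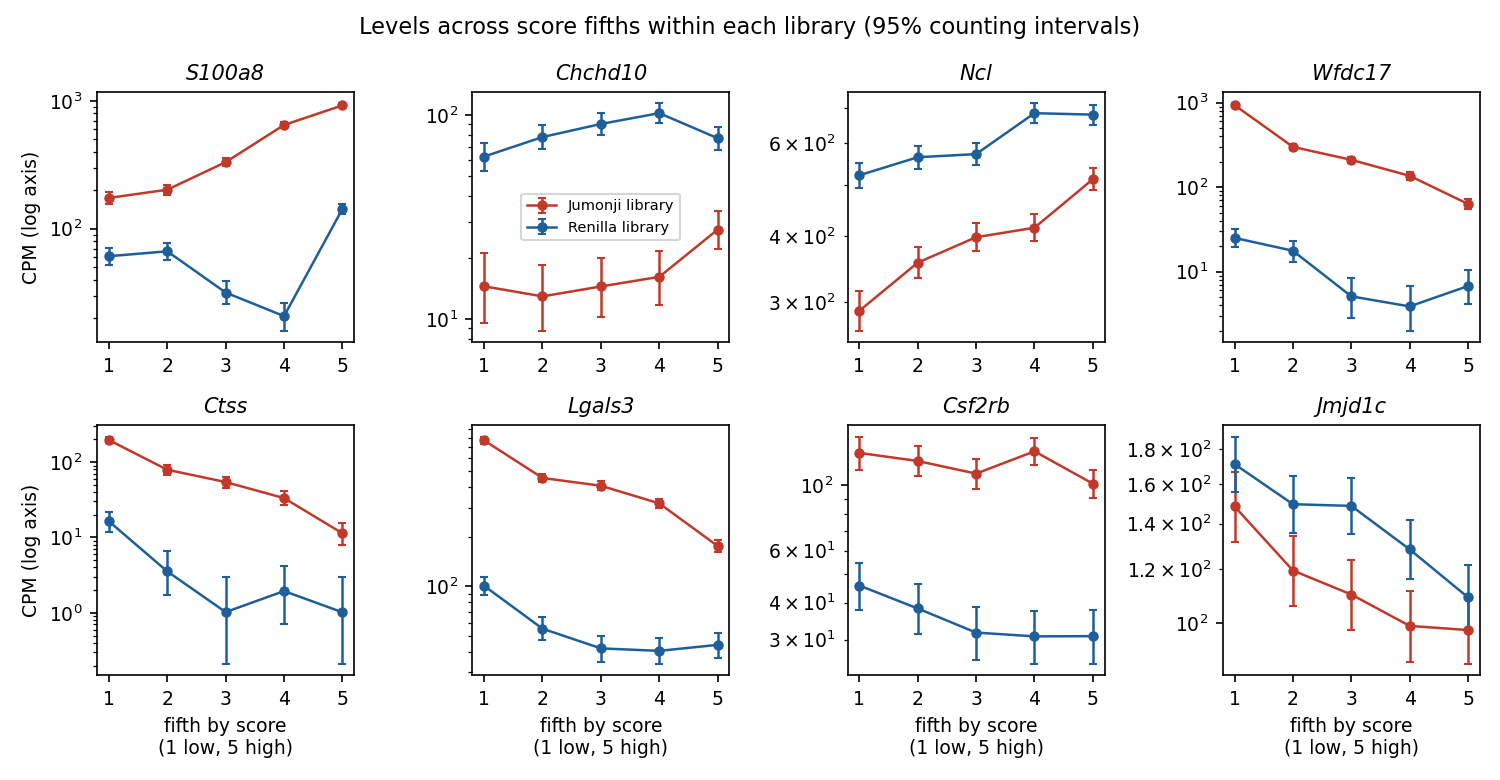
Level of 8 genes (vertical axes, CPM on a log axis) over 5 equal steps of score, 1 the lowest and 5 the highest, in the Jumonji library (red, step 5 the granule-high cells) and the Renilla library (blue), with 95% counting intervals. Wfdc17, Ctss and Lgals3 are lower at higher score in Jumonji cells, Ncl is higher, and Csf2rb stays between 101 and 130 CPM in Jumonji cells and between 30.8 and 45.7 CPM in Renilla cells.

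Against the Renilla cells, the granule-high cells still differed in many genes. Among 8105 genes with 100 UMIs or more, 189 (2.33%) were higher by 2-fold or more and 120 (1.48%) lower by 2-fold or more. For the other Jumonji cells over the same Renilla cells the counts were 443 (5.07%) and 172 (1.97%) of 8743 genes. Both comparisons share the Renilla cells, so their values are given side by side only.

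The leading higher genes had the following values. Lilrb4a, the inhibitory receptor, had a log2 ratio over Renilla cells of 4.59 in granule-high and 5.77 in other Jumonji cells. S100a9 had 3.91 and 2.53, S100a8 3.84 and 2.48, and Lcn2 3.79 and 2.68, so these neutrophil genes were further from Renilla in granule-high cells. Spp1, the secreted phosphoprotein osteopontin, had 4.07 and 3.33. Gas7, a regulator of the cytoskeleton (3.74 and 4.31), Nov, a matricellular protein (3.56 and 4.37), Plek, a protein kinase C substrate (3.35 and 4.33), and Serpina3g, a protease inhibitor (3.31 and 4.33), were less far from Renilla in granule-high cells.

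The leading lower genes included chromatin and mitochondrial genes. Ccr2, the monocyte chemokine receptor, had a log2 ratio over Renilla cells of -3.01 in granule-high and -0.84 in other Jumonji cells, with 3.15 CPM in granule-high cells, 14.1 CPM in other Jumonji cells and 25.3 CPM in Renilla cells. Chchd10, a mitochondrial intermembrane space protein, stood at 27.4, 14.5 and 82.6 CPM in the same order of groups. The junction protein gene Cgnl1 had -2.79 and -1.91, the Polycomb gene Cbx6 -2.22 and -0.84, and the chromatin remodeller Chd3 -2.07 and -1.50. Cpa3, a carboxypeptidase of mast cells (-2.50), Hmgn3, a nucleosome-binding protein (-2.19), Smpd3, a neutral sphingomyelinase (-2.20), Faap100 of the Fanconi anaemia complex (-2.12) and Heg1, a transmembrane protein (-2.12), completed the leading 10.

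Renilla cells chosen in the same way were compared next, over fewer genes than in the comparison with all Renilla cells. Against the top 20% of Renilla cells by score, 121 cells, 137 of 5460 genes (2.51%) were at least 2-fold higher in granule-high cells and 29 (0.531%) at least 2-fold lower. Against the score-matched Renilla cells 152 (2.82%) and 44 (0.818%) of 5382 genes were. With fewer Renilla cells, fewer genes reached the UMI minimum than the 8105 tested against all Renilla cells. A gene low in granule-high cells must reach it mainly by its Renilla UMIs. The shares therefore cannot be set beside those against all Renilla cells. At a minimum of 50 UMIs, 210 genes were higher and 72 lower against the top 20%. In the comparison with the top 20% of Renilla cells, Lilrb4a had a log2 ratio of 5.24, Plek 4.61, Pira2, an activating paired immunoglobulin-like receptor, 4.43, Serpina3g 3.85, Hacd4, an enzyme of very long chain fatty acid synthesis, 3.75, and Tsc22d1, a leucine zipper protein, 3.69. Lower were Tk1, the thymidine kinase of S phase (-1.21), Matk, a kinase that acts on Src family kinases (-1.62), Mgat5, an N-glycan branching enzyme (-1.49), Grhpr, a glyoxylate reductase (-1.60), and Vamp5, a vesicle protein (-1.43).

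Gene lists placed the granule-high cells between the other Jumonji cells and the Renilla cells for some programmes and beyond both for others. List members are counted at 1.5-fold with at least 50 UMIs. Over all genes measured so, 3.69% were higher and 7.28% lower in granule-high than in other Jumonji cells, 7.66% higher and 9.11% lower in granule-high than in Renilla cells, and 11.7% higher and 11.2% lower in other Jumonji than in Renilla cells.

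The secondary granule and neutrophil list had a median log2 ratio of 0.28 against other Jumonji cells (5 higher and 3 lower of 15) and 1.5 against Renilla cells (9 higher and 0 lower of 12). The first median was -0.27 with equal weight of the 5 score genes, where Lcn2 stood at -0.27 in place of 1.11. Its members split: S100a8, S100a9, Lcn2, Camp and Chil3 were higher than in other Jumonji cells, while the collagenase Mmp8 (-1.68), the oxidase subunit Cybb (-0.78) and Ifitm6 (-0.85) were lower. The lactoferrin gene Ltf, the formyl peptide receptor genes Fpr1 and Fpr2, and Retnlg had 0 UMIs in granule-high cells.

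Primary granule genes outside the score did not follow it closely. Of 13 measured, 2 were higher and 0 lower than in other Jumonji cells, with a median of 0.01, and 7 were higher and 0 lower than in Renilla cells, with a median of 0.71. Prss57, a serine protease of these granules, was higher in both (1.00 and 1.23), whereas Ctsc, which activates the granule proteases, was at 101 CPM in granule-high cells, 133 CPM in other Jumonji cells and 53.7 CPM in Renilla cells. Cd63, a granule membrane protein, had 1501 CPM in granule-high cells, 1362 CPM in other Jumonji cells and 709 CPM in Renilla cells. Srgn, the proteoglycan that packs granule proteases, stood at 1549 CPM in granule-high cells, 1660 CPM in other Jumonji cells and 2061 CPM in Renilla cells.

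By their medians, the receptor, monocyte and lysosome lists lay between the groups. The paired immunoglobulin-like receptors had a median of -0.79 against other Jumonji cells (1 higher and 6 lower of 12) and 2.90 against Renilla cells (10 of 10 higher). Pira2 stood at 36.6 CPM in granule-high cells, 98.9 CPM in other Jumonji cells and 4.02 CPM in Renilla cells, and Pirb at 20.5, 64.9 and 4.16 CPM. These receptor genes are close copies of each other, so reads may be split between them. The monocyte and macrophage list had -0.44 (1 higher and 5 lower of 13) against other Jumonji cells and 0.76 (8 higher and 2 lower of 14) against Renilla cells. Lgals3 stood at 176 CPM in granule-high cells, 464 CPM in other Jumonji cells and 55.3 CPM in Renilla cells. Other members of this list lay outside both groups. Ccr2, given above, was below both. Ly6c2 was above both, with a median per cell of 296 CPM in granule-high, 134 CPM in other Jumonji and 161 CPM in Renilla cells. By summed UMIs it was above both by less. It had 1637 of 3173008 UMIs in granule-high, 3130 of 9636653 in other Jumonji and 6345 of 14418743 in Renilla cells. The lysosome list had -0.39 (0 higher and 6 lower of 19) and 0.45 (9 higher and 0 lower of 19).

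Cytokine signalling genes showed a divided picture. The IL-3 receptor family had a median of -0.26 against other Jumonji cells (0 of 6 higher or lower) and 1.05 against Renilla cells (3 of 6 higher and 0 lower). Csf2rb stood at 101 CPM in granule-high cells, 122 CPM in other Jumonji cells and 35.2 CPM in Renilla cells, a log2 ratio over Renilla cells of 1.52 (1.32 to 1.73). Its copy Csf2rb2 stood at 17.6, 21.1 and 4.85 CPM, with reads possibly shared between them. Il3ra, the specific subunit of the IL-3 receptor, stood at 44.1 CPM in granule-high cells, 65.9 CPM in other Jumonji cells and 46.1 CPM in Renilla cells. Of the JAK-STAT list, 0 of 21 were higher and 7 lower than in other Jumonji cells, and 3 of 20 higher and 1 lower than in Renilla cells. Cish, a STAT5 target that limits cytokine signals, stood at 54.5, 90.0 and 27.1 CPM, and Pim2, a kinase induced by STAT5, had 5 UMIs in granule-high and 76 in other Jumonji cells.

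Growth genes leaned toward the Renilla level. The ribosome biogenesis list had a median of 0.37 against other Jumonji cells, with 22 of 23 genes above 0 and 2 higher by 1.5-fold, and -0.24 against Renilla cells, with 1 of 23 above 0. In the other Jumonji cells it was -0.66 against Renilla cells, with 13 of 23 lower by 1.5-fold. Gar1, a small nucleolar ribonucleoprotein subunit, stood at 134 CPM in granule-high cells, 87.2 CPM in other Jumonji cells and 156 CPM in Renilla cells. Within tertiles of depth the medians were 0.13 against other Jumonji cells and -0.62 against Renilla cells. The serine synthesis and ATF4 list had 0.35 and -0.21, with Cth, cystathionine gamma-lyase, at 11.3 CPM in granule-high cells, 3.53 CPM in other Jumonji cells and 14.4 CPM in Renilla cells.

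Granulocyte transcription factors differed in where they lay. Cebpa, which is needed for the granulocyte fate, stood at 16.7 CPM in granule-high cells, 8.20 CPM in other Jumonji cells and 19.6 CPM in Renilla cells. Gfi1, a repressor that favours granulocytes, stood at 21.1, 12.7 and 28.4 CPM, and Cebpe, the factor of late granule genes, at 579, 516 and 394 CPM. Irf8, a monocyte factor, stood at 78.5, 105 and 40.2 CPM. Cebpa and Gfi1 of granule-high cells thus lay closer to Renilla cells than those of other Jumonji cells did, and Cebpe lay further from them. The MLL-AF9 programme had a median of -0.11 against other Jumonji cells (1 higher and 2 lower of 23 by 1.5-fold, 6 of 23 above 0) and of -0.14 against Renilla cells (0 higher and 2 lower of 23, with 2 of 23 above 0).

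**Figure D5:**
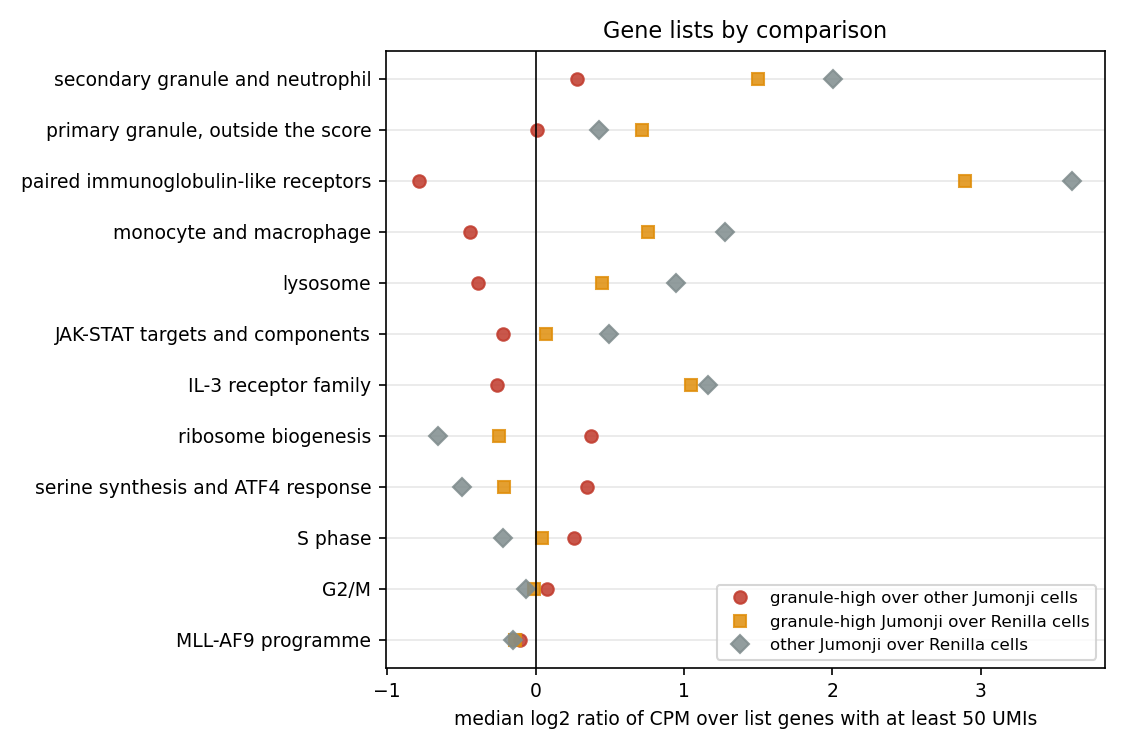
Median log2 ratio of CPM over the measured genes of 12 lists (horizontal axis) for granule-high over other Jumonji cells, granule-high Jumonji over Renilla cells, and other Jumonji over Renilla cells. Paired immunoglobulin-like receptors are at -0.79, 2.90 and 3.62, and ribosome biogenesis genes at 0.37, -0.24 and -0.66. Both comparisons over Renilla cells share those cells.

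Of 5 further lists, none had more than 4 genes past 1.5-fold in 1 direction. Against other Jumonji cells the median was -0.02 for stem and progenitor genes (2 higher and 3 lower of 10), -0.04 for JmjC and LSD1 demethylases (0 higher and 1 lower of 16), 0.01 for folding and secretion in the endoplasmic reticulum (0 and 1 of 24), -0.02 for glycolysis (0 and 1 of 13) and 0.07 for haem, iron and antioxidant genes (0 and 1 of 16). Against Renilla cells the same medians were 0.31 (2 higher and 1 lower of 10), -0.15 (1 and 1 of 17), -0.02 (0 and 1 of 24), 0.07 (2 and 1 of 13) and 0.09 (4 and 1 of 16). The G2/M list had 0.08 against other Jumonji cells (0 and 1 of 52) and -0.01 against Renilla cells (1 and 2 of 52), and the myeloid transcription factors -0.08 (2 and 3 of 15) and -0.24 (2 and 1 of 14).

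Of the lists of other cell types, few genes reached 50 UMIs. Of the mast cell and basophil list, 1 of 4 measured genes was higher and 3 were lower than in other Jumonji cells (median -1.27), and 0 of 5 were higher and 2 lower than in Renilla cells (median -0.25). Of the eosinophil list, 1 of 5 was higher and 4 were lower than in other Jumonji cells (median -0.91), and 1 of 2 was higher than in Renilla cells (median 0.56). Of the antigen presentation list, 0 of 5 were higher and 2 lower than in other Jumonji cells (median -0.43), and 1 of 4 was higher than in Renilla cells (median 0.17). In granule-high cells the summed level was 42.5 CPM for the eosinophil list, 139.6 CPM for mast cells and basophils, 61.5 CPM for erythroid cells, 69.0 CPM for megakaryocytes, 49.8 CPM for lymphoid cells and 28.7 CPM for stromal and endothelial cells. The same sums were 95.8, 153.7, 43.4, 63.7, 22.0 and 32.0 CPM in other Jumonji cells and 35.4, 149, 58.7, 55.8, 29.4 and 20.1 CPM in Renilla cells. The antigen presentation list had a larger sum, at 1055 CPM in granule-high, 1427 CPM in other Jumonji and 731 CPM in Renilla cells. Its gene Cst3 stood at 770 to 828 CPM in the parts of granule-high cells divided by Mpo UMIs. Hdc, of the mast cell and basophil list, stood at 94.6 to 147 CPM in those parts. Nkg7 supplied 48.2 of the 49.8 CPM of the lymphoid list, in which Cd3e, Cd3d and Ms4a1 had 0 UMIs. Of the antigen presentation list, H2-Aa, H2-Eb1, Ciita, Itgax, Siglech, Xcr1 and Clec9a had 0 UMIs in granule-high cells, and H2-DMa, an MHC class II peptide loader, stood at 92.0 CPM in granule-high cells, 180 CPM in other Jumonji cells and 99.5 CPM in Renilla cells.

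The phase of each cell was assigned from its S and G2/M gene scores once it had been thinned to 10000 UMIs. This left out 2 granule-high, 53 other Jumonji and 29 Renilla cells. G1 was called in 19 of 113 granule-high cells (16.8%, 10.4% to 25%), in 116 of 407 other Jumonji cells (28.5%, 24.2% to 33.2%) and in 45 of 579 Renilla cells (7.77%, 5.73% to 10.3%). In the lowest-scoring 20% of Jumonji cells it was 43 of 84 (51.2%). S phase was called in 39.8% of granule-high, 31.7% of other Jumonji and 44.0% of Renilla cells, and G2/M in 43.4%, 39.8% and 48.2%. Without thinning G1 was called in 18.3%, 33.5% and 9.70%. The S phase list had a median of 0.26 against other Jumonji cells (41 of 44 genes above 0) and 0.05 against Renilla cells (27 of 44 above 0), although S phase was called less often in granule-high than in Renilla cells. Mcm7, a subunit of the replicative helicase, stood at 117 CPM in granule-high cells, 79.1 CPM in other Jumonji cells and 106 CPM in Renilla cells, and Cdkn1a, the cell cycle inhibitor p21, at 73.1, 155 and 80.0 CPM.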

How the data were processed

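Libraries were droplet-based 3' single-cell libraries (10x Genomics, v2 reagents), per the labels' protocols. The authors deposited raw UMI counts per gene and barcode, 652 barcodes for Jumonji and 651 for Renilla, over 27998 gene identifiers. Cell Ranger 1.3.1 and the build mm10 were used, per the submitters' processing notes; the cell calling rule is not given in the sources used here. Coordinates are from GENCODE M21 (27645 identifiers found), 1-based, and promoter sequences from RefSeq.

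Of the barcodes, 77 Jumonji and 43 Renilla were excluded, all by mitochondrial share. UMIs were summed over groups of cells, scaled to CPM and compared as log2 ratios with exact 95% conditional binomial intervals. Sums carry exact Poisson and shares exact binomial (Clopper-Pearson) intervals. PCR duplicates are collapsed by UMIs, and all intervals cover counting error only. Where a group had 0 UMIs the ratio used a floor of 3 counts summed over that group, and no ratio was given where that would turn its direction. The score genes were left out of every count. Doublets were kept.

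Genes were named by a rule: the score genes, Jmjd1c, Csf2rb and Csf2rb2, the 10 higher and 10 lower genes of each comparison ranked by the interval bound closest to 0, and, per list, the 2 highest and 2 lowest members plus those 2-fold apart. Ncl, Cd34 and Pon3 lie outside it and were chosen after their values were seen. The cells, the 25 gene lists (448 genes) and the alternatives were chosen with earlier results of these data known. Other sizes of the chosen set, other score weights, all barcodes, a stricter filter of 1000 genes and 5% mitochondrial UMIs, removal of marked doublets, thinning, means over cells, strata of phase and depth, and other UMI minimums were tried. Ratios and their intervals were tested on simulated counts with counting error only. That test does not cover the spread between cells. Python 3.11.15, scipy 1.17.1 and scanpy 1.11.5 were used.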

Additional observations from a re-analysis of the deposited data

Results flagged for a closer look

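Of 7124 genes with at least 100 UMIs in each contrast, 1 was at least 1.5-fold apart in opposite directions when the top 20% of cells by score were set against the rest in the Jumonji and in the Renilla library. This gene was Pon3, a lactonase of the paraoxonase family. Its log2 ratio was -0.71 in the Jumonji library, with 85 UMIs in granule-high cells and 423 in the other Jumonji cells, and 0.79 in the Renilla library, where the top 20% held 96 of 311 UMIs. The difference between the libraries was not tested.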

How the results depend on the processing

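Each result was recomputed under up to 16 other settings. Genes at least 2-fold higher in granule-high than in other Jumonji cells numbered 22. They numbered 34 within cell cycle phases, 48 within tertiles of depth, 689, 48 and 9 at minimums of 1, 50 and 200 UMIs, and 13 without the lowest-scoring 20% of Jumonji cells. Lower genes numbered 115, and 76 with the top 30%, 177 by the mean over cells, 645, 221 and 66 at those minimums, and 54 without the lowest-scoring 20%. Against Renilla cells 189 were higher, with 120 after thinning to 10000 UMIs and 1097 and 121 at minimums of 1 and 200 UMIs. The 120 lower genes became 184 within phases, 257 within tertiles of depth, 618, 250 and 58 at the minimums, and 44 with score-matched Renilla cells. Against the top 20% of Renilla cells 137 were higher, with 67 for the top 10%, 54 after thinning, and 795, 210 and 66 at the minimums, and 29 lower, with 12, 10, 702, 72 and 8 under the same settings. The main settings tested 7414 genes against other Jumonji cells, 8105 against Renilla cells and 5460 against the top 20% of Renilla cells. The number tested changes with the UMI minimum, thinning and group size. These counts are therefore not shares of the same genes, and a change in them need not be a change in the result. The causes were not tested.

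With each score gene measured in cells chosen by the other 4, the log2 ratios over other Jumonji cells were 3.20 for Mpo, 1.95 for Ctsg, 1.93 for Elane, 1.25 for Prtn3 and 2.63 for Ms4a3, and over Renilla cells -1.56, -1.51, -0.10, -0.31 and -0.53. Elane thus changed sign. Without thinning, other Jumonji cells were called G1 in 33.5% and G2/M in 34.8%, and Renilla cells S in 48.5% and G2/M in 41.8%.

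A change of sign was counted only where the main value was at least 2-fold for a gene or 1.5-fold for a list. Of the single genes and lists, 7 values changed sign by this rule, 2117 were labelled unchanged and 196 moved. A gene was unchanged if its value lay inside its main counting interval. A list was unchanged if its median shifted by less than the typical reach of its members' own intervals, which is not the counting error of the median. Other UMI minimums cannot alter a single gene's value, and the minimum of 50 UMIs is the main one for lists. Those settings were bound to be labelled unchanged, so the 2117 is no measure of stability. Smaller values that changed sign fall under the other labels. An example is the secondary granule median over other Jumonji cells, 0.28, which was -0.27 with equal weight. Prg2 over Renilla cells (-1.72) was 0.35 for the top 30%, 0.44 with equal weight of the score genes, 0.20 without Elane and Prtn3, and 0.34 with score-matched Renilla cells. Lcn2 over other Jumonji cells (1.11) was -0.27 with equal weight. The stromal list over Renilla cells was -0.051 for the top 10%, and the erythroid list -0.070 with score-matched cells. S100a8 over other Jumonji cells lay between 0.57 and 2.11, and Csf2rb over Renilla cells between 1.40 and 1.66. Of the granule-high cells, 87 of 115 were chosen again with equal weight and 83 without Elane and Prtn3. The score-matched, lowest-scoring and score-gene-free settings were added after the data had been seen. No paired analysis was possible because each condition had 1 library and no result came from a test between replicates. Depth limits genes under 50 UMIs, which were counted in no list.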

Other observations

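Cd34, a surface protein of haematopoietic progenitors, was lower with higher score in both libraries. In the Jumonji library it stood at 856, 676, 597, 488 and 433 CPM over 5 steps of score from low to high, the last being the granule-high cells. In the Renilla library it stood at 504, 378, 302, 278 and 228 CPM. Ncl, nucleolin, a main nucleolar protein of ribosome biogenesis, ran the other way, at 289, 357, 399, 415 and 513 CPM in the Jumonji library and at 522, 565, 572, 684 and 680 CPM in the Renilla library.

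Barcodes excluded for their mitochondrial share entered no comparison. Of these, 21 of 77 in the Jumonji library (27.3%, 17.7% to 38.6%) and 36 of 43 in the Renilla library (83.7%, 69.3% to 93.2%) had a score at or above the lowest granule-high cell.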
